A study of Rattus norvegicus with 8 samples.

Results

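The AP-1 and EGR immediate early genes were read in whole blood of hypertensive rats before and after the administration of Chios mastic gum (CMG), a tree resin. Members were chosen by gene name: Egr1, Egr2, Egr3, Fos, Fosb, Jun, Junb, Jund, Ier2 and Atf3, and all 10 were found among the 17446 genes counted. The choice was made with results of these libraries known, in particular the lower values of Egr1, Fosb and Jun after CMG administration, so the differences between after and before are given as a description, with no p-value. All rats were wild type male Wistar rats, aged 12 to 14 weeks at the start. For the AngII model, angiotensin II was infused at 0.4 mg/kg/day by minipump. The before libraries are of week 1, and the after libraries of week 5, when CMG had been given by gavage at 220 mg/kg for 4 weeks. For the DOCA–HS model, deoxycorticosterone acetate (DOCA) was given at 100 mg/kg each week with drinking water that held 0.9% NaCl and 1% KCl. Its before libraries are of week 3 and its after libraries of week 7, with the same dose and time of CMG. All blood was drawn by cardiac puncture into heparin at 1000 IU/mL, per the labels. Each of the 4 groups held 2 libraries of total RNA, and the sources used here do not say which rats gave them or whether a replicate number marks a rat. No library of a group without CMG was analysed here, so CMG and 4 further weeks of the model cannot be told apart.

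Immediate early genes are switched on within minutes of a stimulus, without new protein synthesis, and their mRNAs are short-lived. Growth factor and stress signals reach them through MAP kinases, which act on SRF and its partners at CArG boxes and on CREB at cAMP response elements. FOS and JUN proteins pair through leucine zippers as AP-1, whereas EGR proteins bind GC-rich DNA through zinc fingers. In blood these genes are known to respond to the activation of lymphocytes and monocytes.

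Of the members, 6 had a promoter entry in the RefSeq table (GRCr8), namely Egr1, Egr2, Fosb, Junb, Jund and Ier2. The 250 bases before the transcription start of 4 of them are shown, because they hold CArG boxes or the full cAMP response element. Capitals mark CArG boxes, TGACGTCA, TGACG (as CGTCA on the other strand) and the EGR element GCGTGGGCG, and TGACG is also contained in TGACGTCA.
Egr1, chr18:26736828-26737077, plus strand: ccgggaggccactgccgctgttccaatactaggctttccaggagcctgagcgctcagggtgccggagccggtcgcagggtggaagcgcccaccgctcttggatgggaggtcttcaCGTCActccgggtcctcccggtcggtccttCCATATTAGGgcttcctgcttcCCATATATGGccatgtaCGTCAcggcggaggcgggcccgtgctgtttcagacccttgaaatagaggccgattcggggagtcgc
Egr2, chr20:21054442-21054691, minus strand: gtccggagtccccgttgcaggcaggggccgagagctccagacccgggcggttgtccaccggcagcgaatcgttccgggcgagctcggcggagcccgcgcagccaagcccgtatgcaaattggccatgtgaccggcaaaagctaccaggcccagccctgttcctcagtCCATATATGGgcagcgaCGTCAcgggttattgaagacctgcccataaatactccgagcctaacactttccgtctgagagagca
Ier2, chr19:40399123-40399372, plus strand: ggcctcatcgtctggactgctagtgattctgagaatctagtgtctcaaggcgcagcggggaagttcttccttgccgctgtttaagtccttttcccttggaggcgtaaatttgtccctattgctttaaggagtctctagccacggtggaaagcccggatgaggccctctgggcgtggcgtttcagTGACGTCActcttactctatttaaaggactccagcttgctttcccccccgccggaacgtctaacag
Jund, chr16:18769772-18770021, minus strand: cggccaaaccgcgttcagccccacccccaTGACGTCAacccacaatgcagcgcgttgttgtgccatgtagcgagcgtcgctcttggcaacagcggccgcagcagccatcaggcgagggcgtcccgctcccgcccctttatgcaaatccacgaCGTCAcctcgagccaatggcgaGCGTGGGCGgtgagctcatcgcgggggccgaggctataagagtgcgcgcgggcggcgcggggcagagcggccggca

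Egr1 had CArG boxes 105 to 96 and 83 to 74 bases before its start, and Egr2 had one at 83 to 74. Searched on both strands, a CArG box was present in 2 of the 6 members' promoters and in 1.5% of 33469 promoters of the same length. TGACGTCA lay 66 to 59 bases before the start of Ier2 and 221 to 214 before that of Jund, and was found in 1.59% of all promoters. The shorter TGACG was found in 5 of 6 members, with Fosb as the exception, against 18.2% of all promoters. Only Jund held GCGTGGGCG, at 76 to 68 bases, against 0.478% of all promoters. The AP-1 element TGAGTCA was in 0 of 6 windows and in 4.05% of all promoters. These matches are descriptions of letters, and binding was not measured.

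The libraries held between 4149104 and 13205565 counts on genes, of which 61.9% to 84.3% fell on hemoglobin genes. DOCA–HS after replicate 2 stood apart, with 84.3% hemoglobin, 651764 counts outside hemoglobin and 10 or more counts for 2686 genes, where the other 7 libraries had 6097 to 8280 such genes. A single count was worth 0.703 normalized CPM (counts scaled to library totals, which TMM adjusts) in that library and 0.0554 to 0.169 in the others, so its low values rest on few reads. Intervals of counts cover counting error only. In bulk blood, fewer cells of a type and less RNA per cell cannot be told apart. Levels are compared between groups and never between genes, since gene lengths were not used.

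Egr1, a zinc finger factor induced by growth and stress signals, was lower in every after library than in every before library of its own model. In the AngII model its normalized CPM was 8.41 and 10.98 before CMG, against 1.44 and 1.85 after it. The before libraries lay well apart from the after libraries and close to each other, with group means of 9.70 ± 1.82 and 1.64 ± 0.289 (SD, n = 2). The log2 fold change was −2.49 (standard error, SE, 0.33) and stayed between −2.71 and −2.35 with 1 library left out. In the DOCA–HS model Egr1 was at 21.7 and 2.66 normalized CPM before CMG and at 1.77 and 1.41 after it. Before replicate 1 was far above the other 3 libraries, and the remaining before library was only slightly above the after libraries. The value of 1.41 rests on 2 counts (95% Poisson interval 0.170 to 5.08 normalized CPM), an interval that also covers 2.66. The log2 fold change of −2.87 (SE 0.97) was −0.68 without before replicate 1 and −2.81 without after replicate 2.

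The relatives Egr2 and Egr3, which act in lymphocyte and nerve cell differentiation, were near the limit of detection. Neither passed the filter on low counts in the main fits. Egr2 passed it in several fits between the models with 1 library left out, and the fits with no filter held both genes. The AngII libraries held 3 and 0 counts of Egr2 before CMG and 0 and 2 after it, and the DOCA–HS libraries 12 and 0 before it. Egr2 had no count in either DOCA–HS after library, which allows up to 0.231 and 2.11 normalized CPM (3 counts). Egr3 had 2 and 2 counts before and 0 and 3 afterwards in the AngII model, and 9 and 5 before and 4 and 0 afterwards in the DOCA–HS model. Its DOCA–HS after libraries lay below the before libraries in normalized CPM, but the 0 in after replicate 2 allows up to 2.11, above both before values of 0.499 and 0.531.

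**Figure D1:**
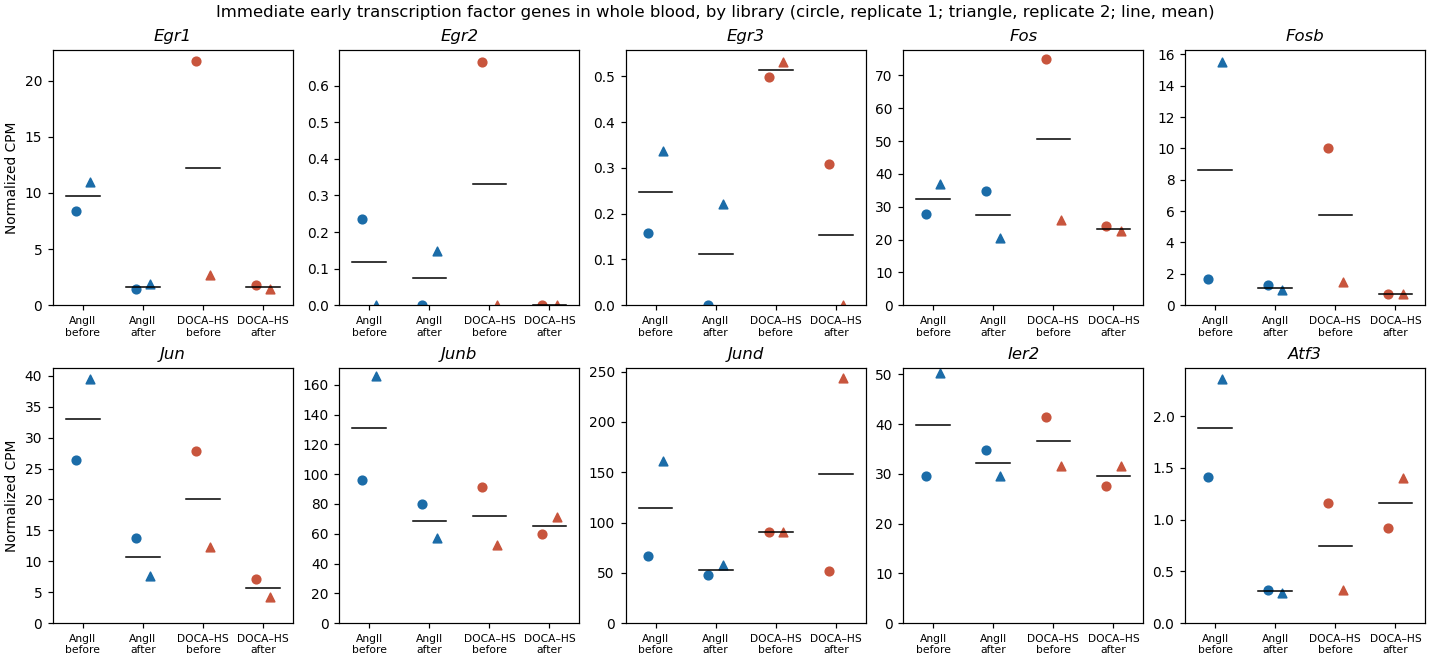
Normalized CPM (y axis, linear from 0, a scale of its own for each gene) of the 10 genes in the 4 groups, with replicate 1 as a circle, replicate 2 as a triangle and the mean as a line. Egr1 in the AngII model separates before from after with both libraries, whereas its DOCA–HS before libraries lie at 21.7 and 2.66, and Jund is highest at 244.0 in DOCA–HS after replicate 2.

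Among the FOS genes, which encode AP-1 partners that need a JUN protein to bind DNA, Fosb had the log2 fold change of larger size in both models. Fosb was at 1.65 and 15.5 normalized CPM before and 1.28 and 0.961 afterwards in the AngII model. The groups did not overlap, but before replicate 1 lay just above the after libraries, and its log2 fold change of −2.85 (SE 0.94) was −0.62 without before replicate 2. With DOCA–HS, Fosb was at 10.03 and 1.49 before CMG and at 0.692 and 0.703 after it. Again 1 before library carried most of the difference, since the log2 fold change of −3.07 (SE 1.01) was −1.08 without before replicate 1 and −3.11 without after replicate 2. The value of 0.703 is a single count (95% Poisson interval 0.0178 to 3.92), which covers the before value of 1.49.

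Fos had 27.8 and 37.0 normalized CPM before CMG and 34.7 and 20.5 afterwards in the AngII model. These groups overlapped, and the log2 fold change of −0.21 (SE 0.36) was 0.12 without after replicate 2 and 0.11 when libraries were scaled to total counts, a scaling that moved the median of all genes from −0.01 to 0.36. With DOCA–HS, Fos was at 75.1 and 26.0 before CMG and at 24.1 and 22.5 after it. The groups did not overlap, but 3 of the 4 libraries lay close together, and the log2 fold change of −1.11 (SE 0.59) was −0.15 without before replicate 1 and −1.06 without after replicate 2.

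Jun, the AP-1 subunit that can bind DNA as a pair with itself, was lower after CMG in both models. It was at 26.4 and 39.5 normalized CPM before CMG and at 13.8 and 7.62 afterwards in the AngII model. With DOCA–HS it was at 27.8 and 12.3 before CMG and at 7.07 and 4.22 after it. The groups did not overlap in either model. Both DOCA–HS after libraries also lay below both AngII after libraries. The log2 fold change was −1.61 (SE 0.39) in the AngII model, where it ranged from −2.14 to −1.23 with 1 library left out. In the DOCA–HS model it was −1.74 (SE 0.56), and −1.07 without before replicate 1 and −1.504 without after replicate 2.

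Junb and Jund encode the other JUN proteins of AP-1, and Jund is known to be expressed more constantly than the other members. Junb was at 95.8 and 165.7 normalized CPM before CMG and at 79.7 and 56.9 afterwards in the AngII model, with no overlap and a log2 fold change of −0.91 (SE 0.39). It was −0.51 to −1.26 with 1 library left out. With DOCA–HS, Junb was at 91.6 and 52.2 before CMG and at 60.0 and 71.0 after it. Those groups overlapped, and the log2 fold change was −0.13 (SE 0.52), which was 0.33 without before replicate 1 and −0.25 without after replicate 2.

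Jund was at 66.7 and 161.3 normalized CPM before CMG and at 48.0 and 58.1 afterwards in the AngII model. Before replicate 2 was the higher by far, and the log2 fold change of −1.07 (SE 0.45) was −0.36 without it. With DOCA–HS, Jund was at 90.7 and 91.0 before CMG and at 52.0 and 244.0 after it. The before libraries were nearly equal, and the after libraries lay on either side of them. The log2 fold change of 0.70 (SE 0.73) was −0.80 without after replicate 2, the library that stood apart, and 1.43 without after replicate 1. Under total counts, which moved the median of all genes from −0.04 to −0.76, it was also −0.80.

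Atf3, a stress-induced member of the ATF/CREB family that can pair with JUN, had 1.41 and 2.36 normalized CPM before CMG and 0.320 and 0.296 afterwards in the AngII model. The groups did not overlap, on 18 and 14 counts before and 2 and 4 after. The single-library 95% Poisson intervals after CMG were 0.0387 to 1.16 and 0.0806 to 0.757. The log2 fold change was −2.51 (SE 0.68), with a range of −2.89 to −2.21 when 1 library was left out. Atf3 in the DOCA–HS model was at 1.16 and 0.319 before CMG and at 0.923 and 1.41 after it. These groups overlapped, and the log2 fold change of 0.31 (SE 0.84) ran from −0.13 to 1.68 with 1 library left out (the highest without before replicate 1), was 0.18 without after replicate 2, and was −0.45 under total counts, against −0.76 for the median of all genes.

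Ier2, a nuclear protein of the immediate early class that is neither a leucine zipper nor an EGR factor, varied least of the members with at least 10 counts on average, by 1.82 times between its highest and lowest library. It was at 29.6 and 50.2 normalized CPM before CMG and at 34.9 and 29.6 afterwards in the AngII model, with overlap. With DOCA–HS it was at 41.4 and 31.7 before CMG and at 27.6 and 31.6 after it, groups that were separated by a narrow margin. The log2 fold changes were −0.28 (SE 0.35) and −0.30 (SE 0.46, and −0.39 without after replicate 2), and the former was 0.09 at most with 1 library left out and 0.10 under total counts, against 0.36 for the median of all genes.

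Both after libraries were below both before libraries for 6 of 10 members in each model. In the AngII model these were Egr1, Fosb, Jun, Junb, Jund and Atf3, and 18.5% of all genes tested there were separated in this way. In the DOCA–HS model they were Egr1, Egr3, Fos, Fosb, Jun and Ier2, and without Egr3, which was not tested, this is 5 of 8 against 21.1% of all genes tested. Egr1, Fosb and Jun were separated in both models, as were 4.51% of the genes tested in both. The log2 fold changes of Egr1, Fosb, Jun and Atf3 lay below −1.5 in the AngII model, as did those of 0.389% of all genes tested. Egr1, Fosb and Jun lay below it in the DOCA–HS model, as did 0.427% of all genes tested. Since these contrasts chose the members, nothing is read from the counts. The 8 members that passed the filter on low counts had a median log2 fold change of −1.34 with AngII (−0.01 over all genes tested) and of −0.71 with DOCA–HS (−0.04 over all). Without AngII before replicate 2 the former was −0.57 and 2 members lay below −1.5. Without DOCA–HS before replicate 1 the latter was −0.13 and 0 members did, and without DOCA–HS after replicate 2 it was −0.93 and 3 did.

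By mean normalized CPM, the order of the 4 groups for Egr1 was DOCA–HS before, AngII before, AngII after and DOCA–HS after, and of neighbouring groups only AngII before and AngII after were separated without overlap. For Fosb and Jun it was AngII before, DOCA–HS before, AngII after and DOCA–HS after. Each place of Fosb but the first pair was separated from the next, and for Jun only the last pair was. DOCA–HS after replicate 2 held 1 count of Fosb and 6 of Jun, so the last place rests in part on few reads. Fos followed the order of Egr1 and Ier2 that of Jun, with no neighbouring groups separated. Atf3 differed in order, with AngII before highest and just above DOCA–HS after, followed by DOCA–HS before and AngII after, each overlapping the group before it. Jund was highest in DOCA–HS after, where its libraries lay at 52.0 and 244.0, and Junb in AngII before, separated from DOCA–HS before.

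**Figure D2:**
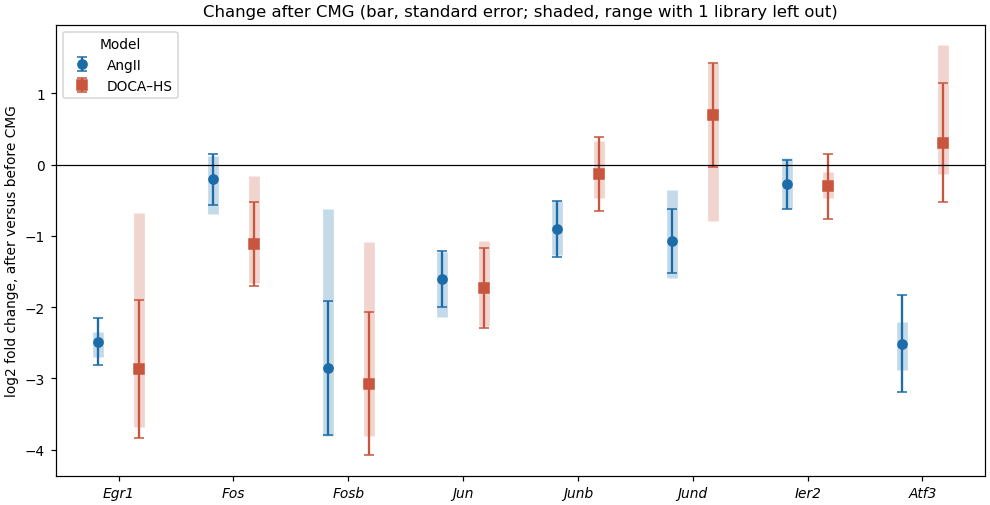
Log2 fold change after versus before CMG (y axis) of the 8 genes tested, with the AngII model as circles and the DOCA–HS model as squares. Bars are standard errors, and shaded bands span the values with 1 library left out: in the AngII model the band of Egr1 runs from −2.71 to −2.35 and that of Fosb from −3.81 to −0.62.

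The 2 libraries of a before group could lie as far apart in these genes as before and after did. In DOCA–HS before, replicate 1 exceeded replicate 2 by 8.18 times for Egr1, 6.74 times for Fosb, 3.65 times for Atf3, 2.88 times for Fos and 2.26 times for Jun. On the log2 scale, a difference as large as that of Egr1 was seen between these libraries in 0.0625% of the 7994 genes tested, as large as that of Fosb in 0.150%, as that of Fos in 1.48% and as that of Jun in 3.90%. Jund was nearly equal in the pair (1.00 times). In AngII before, replicate 2 exceeded replicate 1 by 9.41 times for Fosb, a difference reached by 0.275% of genes, and by 2.42 times for Jund (6.68% of genes). Egr1, by contrast, differed there by 1.31 times, as much as or less than 48.4% of genes. In both after groups, the 2 libraries differed by at most 1.33 times for Egr1 and Fosb, on 1 and 2 counts in DOCA–HS after replicate 2.

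Markers of blood cell types were summed in the same libraries, because blood RNA mixes these cells. The T cell list had 6 of 7 markers counted, and its sum was 186 to 197 normalized CPM before and 136 to 167 afterwards in the AngII model, and 193 to 205 before and 118 to 156 afterwards in the DOCA–HS model. The sums did not overlap in either model. The NK cell list, with 6 of 6 markers counted, went the other way, from 28.5–31.4 to 52.7–60.0 and from 20.1–34.6 to 36.2–56.3. The part of these cells in the members' differences was not tested.

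Monocyte markers (6 of 7 counted) summed to 400–409 before and 503–505 normalized CPM afterwards in the AngII model, and to 430–679 and 387–621 in the DOCA–HS model. Neutrophil markers (7 of 7) summed to 233–246 and 230–256, and to 137–413 and 225–487. B cell markers (5 of 6) summed to 43.8–66.2 and 45.1–81.3, and to 73.1–98.2 and 32.3–55.2. Monocyte sums separated before from after in the AngII model alone, B cell sums in the DOCA–HS model alone, and neutrophil sums in neither. Sums weigh abundant markers most. Taken gene by gene, the median log2 fold change in the AngII model was 0.57 for neutrophil, 0.72 for monocyte and 0.15 for B cell markers. In the DOCA–HS model these medians were 0.03, 0.27 and −0.96. Platelet markers (6 of 7) summed to 166–550 and 53.1–498, and to 183–264 and 522–949, with separation in the DOCA–HS model. Of erythroid markers 5 of 7 were counted, and Hbb, which is among the 5, was left out of the sum. The others summed to 19941–26323 and 12800–19751, and to 10029–14138 and 10669–35566. They were separated in the AngII model by a narrow margin (19941 against 19751). Of defining markers, Gp1bb was at 0 in all 8 libraries, Ms4a7 in 5 and Gp5 in 3, and Cd14, Cd4 and Blk were at 0 in DOCA–HS after replicate 2, so these labels rest on few reads there. Their part was not tested either.

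**Figure D3:**
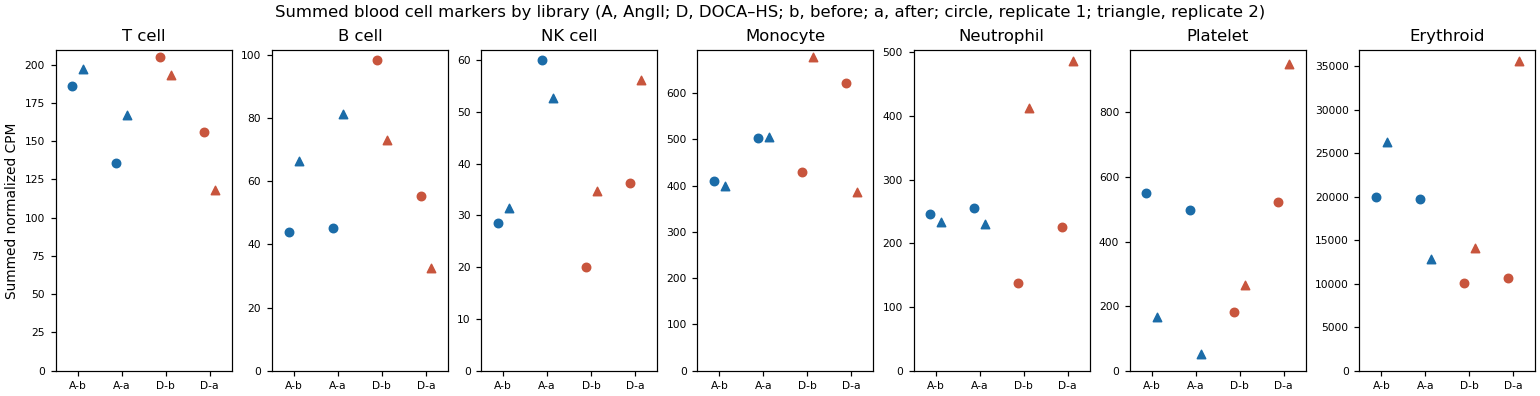
Summed normalized CPM (y axis, linear from 0) of 7 lists of blood cell markers in each library, with A for the AngII and D for the DOCA–HS model, b for before and a for after CMG, circles for replicate 1 and triangles for replicate 2. T cell sums are lower in all 4 after libraries (118 to 167) than in all 4 before libraries (186 to 205). Hbb is left out of the erythroid sums.

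Whether the members differed between the hypertension models is a comparison their choice did not use. It was tested over all 8 libraries with before or after CMG as a covariate. The AngII libraries are of weeks 1 and 5 and the DOCA–HS libraries of weeks 3 and 7. Model and week of sampling therefore cannot be told apart in the comparisons between the models. No member passed an unadjusted p-value of 0.05 (0 of 8, edgeR's quasi-likelihood test, where 2.6% of all genes tested passed), and DESeq2 also gave 0. Jun was nearest, with a log2 difference (DOCA–HS minus AngII) of −0.75 (SE 0.34, unadjusted p = 0.0517, adjusted p = 1, edgeR). The difference was −0.34 under total counts, which moved the median of all genes from 0.03 to 0.27. With 1 library left out, the difference of Jun ran from −1.07 (without DOCA–HS before replicate 1) to −0.58 (without AngII after replicate 1). The other differences ran from −0.51 for Fosb (SE 0.73) to 0.57 for Jund (SE 0.56, and −0.21 without DOCA–HS after replicate 2), and that of Egr1 was 0.24 (SE 0.53). All 4 DOCA–HS libraries lay above all 4 AngII libraries for 0 of 10 members (0.888% of genes tested), and below them for 0 of 10 (0.826%). A p-value that misses the threshold does not show that the models were alike.

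Before CMG, 0 of 8 members passed (3.38% of all genes tested), and the smallest p-values were those of Junb (log2 difference −0.86, SE 0.47, unadjusted p = 0.0925) and Atf3 (−1.17, SE 0.64, unadjusted p = 0.0939), with adjusted p-values of 0.992 (edgeR). Both AngII before libraries lay above both DOCA–HS before libraries for each of these genes. DESeq2 also gave 0 of 8. This comparison and the next, after CMG, share libraries with the contrasts that chose the members. Egr1 differed by 0.36 (SE 0.68), and by −1.83 without DOCA–HS before replicate 1. Atf3 differed by −2.45 without that library, and Egr1 by 1.12, in the opposite direction, without DOCA–HS before replicate 2.

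After CMG, 0 of 8 members passed in edgeR (2.79% of all genes tested), whereas Jund passed in DESeq2 (unadjusted p = 0.0176). The log2 difference of Jund was 1.47 (SE 0.68, unadjusted p = 0.0542, edgeR), and −0.03 without DOCA–HS after replicate 2. Atf3 was higher in both DOCA–HS than in both AngII after libraries, by 1.69 (SE 0.87, unadjusted p = 0.0792, edgeR), and by 1.57 without that library. Without DOCA–HS after replicate 1, which left only the library that stood apart in its group, the difference of Jund was 2.18. Egr1 differed by 0.01 (SE 0.91).

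The difference between the models in after versus before was tested as an interaction. Atf3 alone of the 8 members passed an unadjusted p-value of 0.05, as did 3.74% of all genes tested. Under other settings of all 8 libraries 0 to 2 members passed. Jund passed beside Atf3 under DESeq2, where 320 of 7994 genes did, and with no filter, where 691 of 11692 did. The interaction of Atf3 was 2.86 on the log2 scale (SE 1.08, unadjusted p = 0.0230, adjusted p = 0.881, edgeR), so it did not pass the adjustment over all genes. The value was 2.39 to 4.13 with 1 library left out, and 1.70 (unadjusted p = 0.317, edgeR) under total counts, which moved the median of all genes from −0.12 to −1.21. It shares its libraries with the contrasts that chose the members. For Egr1, Fosb and Jun, the interactions of −0.35, −0.18 and −0.10 had SEs of 1.15, 1.62 and 0.71.

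**Figure D4:**
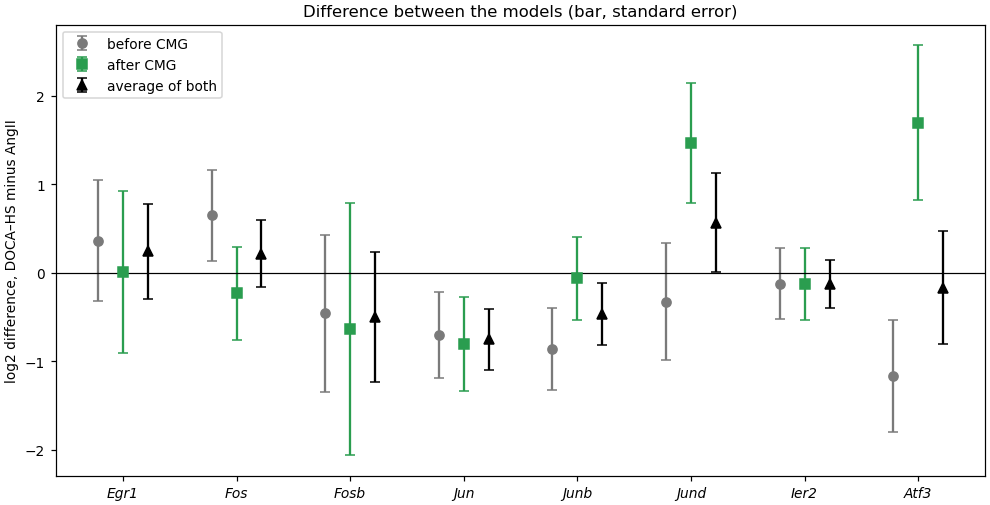
Log2 difference of DOCA–HS minus AngII (y axis) for the 8 genes tested, before CMG (grey circles), after CMG (green squares) and averaged over both (black triangles), with standard errors as bars. Jun lies below 0 in each, at −0.71, −0.80 and −0.75, and Atf3 lies at −1.17 before and 1.69 after CMG.

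Related genes were taken from lists of other AP-1 and bZIP factors, Egr4 and the NAB corepressors of EGR proteins, other immediate early genes, the MAP kinase and SRF route upstream, and known AP-1 and EGR targets. The lists were chosen with earlier results of these data known. The authors reported Rhob as lower after CMG in both models of this series, so its passing here is not an independent result. Their threshold also asked for a log2 fold change beyond 1.5, whereas passing here used the unadjusted p alone. Rhob did not reach that fold change here in either model (−1.09 and −1.32). Of 91 genes listed, 86 were counted, and 65 were tested for AngII and 66 for DOCA–HS. In the AngII model, 6 of the 65 were lower after CMG at an unadjusted p of 0.05 or less, against 1.61% of all genes tested, and 1 was higher, against 5.04%. For DOCA–HS, 1 of 66 was lower (0.44% of all genes) and 1 was higher (2.73% of all genes). No related gene passed the Benjamini-Hochberg adjustment over all genes in edgeR with the libraries unpaired, with adjusted p-values of 0.590 to 0.747 for the 7 AngII genes and 0.997 for both DOCA–HS genes. With no filter 2 AngII genes passed the adjustment, as did 51 of all 11196 genes. With the replicate number as a block 4 did, as did 165 of all 7201 genes. Leaving out 1 library changed the number of related genes passing in both models, with and without the adjustment, and also the number of all genes passing. Scaled to total counts, which moved the median of all genes from −0.01 to 0.36 and from −0.04 to −0.76, Nfkbia and Cd69 were the lower genes left in the AngII model, with 3 higher, and no gene passed in the DOCA–HS model.

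Other immediate early genes held 5 of the 6 lower AngII genes. Nfkbia, the inhibitor of NF-kB that NF-kB itself induces, was at 63.7 and 61.3 normalized CPM before CMG and at 19.5 and 22.3 after it, a log2 fold change of −1.56. The replicates lay close together and the groups far apart. Klf6, a zinc finger factor, was at 38.8 and 47.0 before CMG and at 20.3 and 24.6 after it (−0.91). Rhob, a short-lived small GTPase, was at 23.7 and 27.9 before and at 11.5 and 12.3 after (−1.09). Rhob was also the lower gene of the DOCA–HS model, at 30.7 and 18.7 before CMG and at 13.3 and 4.92 after it (−1.32), which ran from −2.33 without after replicate 1 to −0.89 without after replicate 2 and was −0.96 without before replicate 1. Myc (−0.87, and −0.42 without before replicate 1) and Dusp2, a nuclear MAP kinase phosphatase (−1.05), were the others in the AngII model, and neither group pair overlapped. In the DOCA–HS model Nfkbia (−0.15), Klf6 (0.77), Myc (−0.65) and Dusp2 (−0.36) did not pass. The DOCA–HS after libraries of Klf6 lay at 19.2 and 76.6. Of the 21 genes of this list tested in the AngII model, 16 were below 0 with a median log2 fold change of −0.51. In the DOCA–HS model 15 of 22 were, with a median of −0.30, against −0.01 and −0.04 over all genes.

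Among the targets, Cd69, an early activation antigen of lymphocytes, was at 23.6 and 21.96 normalized CPM before CMG and at 5.44 and 9.17 afterwards in the AngII model. Its groups did not overlap, and the log2 fold change was −1.60. The 7 targets tested there had a median of 0.18, so Cd69 was not typical of its list, and in the DOCA–HS model 0 of 6 passed with a median of −0.19. In the MAP kinase and SRF list, Rps6ka5, a kinase that phosphorylates CREB, was higher in the DOCA–HS model (2.99 and 3.72 before, 6.61 and 7.73 after, log2 fold change 1.07). The groups did not overlap. The value of 7.73 rests on 11 counts, and the log2 fold change was 1.01 without that library. It was 0.31 under total counts, against −0.76 for the median of all genes. In DESeq2 Rps6ka5 did not pass (unadjusted p = 0.115). The medians of that list were 0.20 over 25 and −0.18 over 26 genes tested, and Srf itself was at −0.08 and −0.14 on the log2 scale. None of the 10 other AP-1 and bZIP factors tested passed in either model, and their medians were −0.29 and 0.36. Of Egr4 and the NAB genes, Nab1 and Nab2 were tested, with medians of 0.21 and 0.53.

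**Figure D5:**
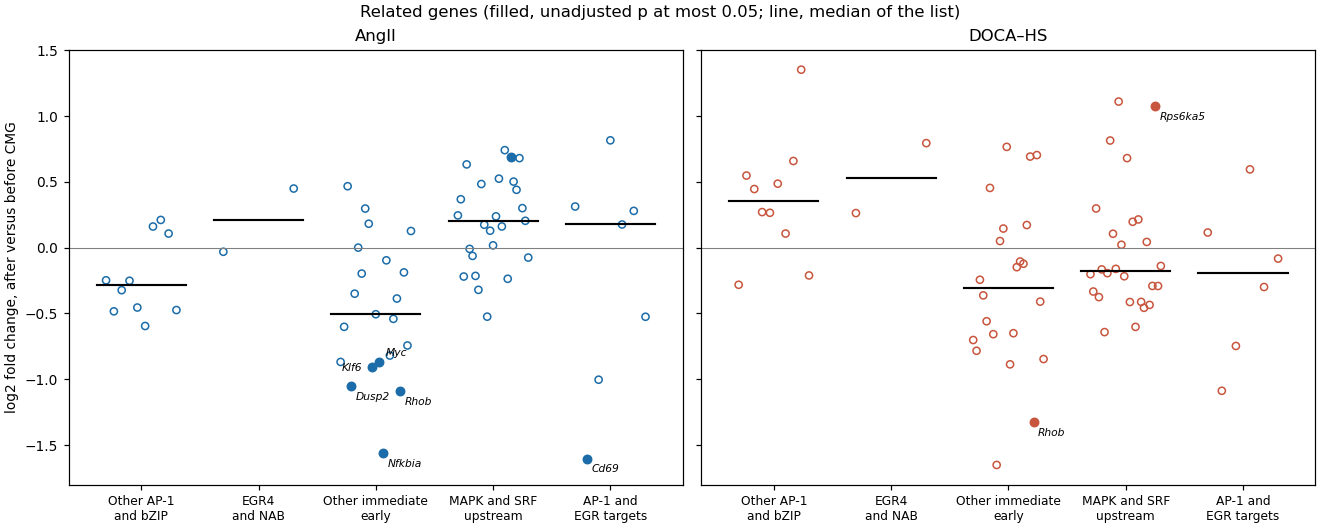
Log2 fold change after versus before CMG (y axis) of related genes in 5 lists, for AngII (left) and DOCA–HS (right), with each circle a gene, filled at an unadjusted p of 0.05 or less, and the median of a list as a line. Nfkbia and Cd69 lie lowest among the filled AngII genes, at −1.56 and −1.60.

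Over the 8 libraries, the members with at least 10 counts on average were high and low in similar libraries, except Jund. Pearson correlations of log2 CPM between the 15 pairs without Jund were 0.51 to 0.93 (median 0.78), and those of the 6 pairs with Jund were −0.04 to 0.44. Without DOCA–HS after replicate 2 the pairs with Jund reached 0.40 to 0.86. Fosb followed the mean of the others most closely (0.96), then Ier2 (0.89), Egr1 (0.83), Junb (0.82), Jun (0.79), Fos (0.71) and Jund (0.24, and 0.77 without that library). The points share groups and libraries, and no p-value is given.

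Of 7396 other genes with a mean of at least 10 counts, the 5 most like the mean standardised profile of the members were Sucla2 (Pearson r 0.93), Spata5 (0.93), Tfb2m (0.92), Tob1 (0.92) and Rps27l (0.91), over 8 libraries. Without DOCA–HS after replicate 2, where these genes had 1 to 5 counts, the 5 were Fem1b (0.98), Psme3 (0.96), Med10 (0.96), Btg2 (0.94) and Sucla2 (0.94). Sucla2 was the gene that both lists held.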

How the data were processed

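Whole blood RNA was measured by single-end sequencing in 8 libraries, 4 of each model, of which 2 were from before CMG. The authors aligned reads to rn6 with HISAT2, used HTSeq for strand-aware gene counts and deposited these counts without normalization. They state that hemoglobin annotations were removed, but Hbb and LOC100134871, taken here as hemoglobin, lead the counts. The columns were all of the 8 libraries, with 0 others.

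The authors used DESeq2. Here, edgeR 4.0.16 (R 4.3.3) was used: filterByExpr, TMM, estimateDisp and the quasi-likelihood test, with the 4 libraries of a model fitted alone, all 8 for the models, and Benjamini-Hochberg adjustment over all genes tested. A log2 CPM took a prior count of 2. Groups came from the labels, and p-values measure the spread between libraries, which may be technical. The computation was tested on simulated counts.

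The members and lists were chosen with earlier results of these data known. All 10 members were described, related genes were named at an unadjusted p of 0.05 or less in either model (1 of them is not reported here), and the 5 genes most like the members by correlation. Btg2, Fem1b, Psme3, Med10, Srf, Nab1 and Nab2 were named after their values were seen. Promoters are from RefSeq (GRCr8). Alternatives were other scalings and filters, DESeq2 1.42.0, 1 fit of all libraries, a block and each library left out.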

Additional observations from a re-analysis of the deposited data

Results flagged for a closer look

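Atf3 was flagged for its interaction, the difference between the models in after versus before CMG. This was 2.86 on the log2 scale (standard error 1.08, unadjusted p = 0.0230, adjusted p = 0.881, edgeR). It did not pass the adjustment over all genes, and 3.74% of all genes tested passed unadjusted. The test shares its libraries with the contrasts that chose the members. Atf3 was at 1.41 and 2.36 normalized CPM before CMG and 0.320 and 0.296 afterwards with AngII, and at 1.16 and 0.319 before and 0.923 and 1.41 after it in the DOCA–HS model. The highest of these values rests on 14 counts and that of 1.41 in DOCA–HS after replicate 2 on 2 counts. Without that library the interaction was 2.73 (unadjusted p = 0.0323, edgeR). It did not pass an unadjusted p-value of 0.05 without AngII before replicate 2 (2.51), AngII after replicate 2 (2.77) or DOCA–HS after replicate 1 (3.34), under total counts (1.70, unadjusted p = 0.317, edgeR) or under counts outside hemoglobin (2.14, unadjusted p = 0.119, edgeR).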

How the results depend on the processing

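With at most 2 libraries in a group, 1 library decided several values. Leaving out 1 library moved the median log2 fold change of the members between −1.74 and −0.57 in the AngII and between −1.07 and −0.13 in the DOCA–HS model. It moved the number of related genes with an unadjusted p of 0.05 or less from 7 to between 6 and 16, and from 2 to between 0 and 23. The members passing between the models were 0 to 1 averaged, 0 to 2 before CMG, 0 to 1 after it and 0 to 2 in the interaction. A group left with 1 library was assumed to vary like the others. Without DOCA–HS before replicate 1, the model difference of Egr1 before CMG turned from 0.36 to −1.83 (range −1.83 to 1.12) and its interaction from −0.35 to 1.82 (range −1.13 to 1.82).

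At least 10 counts in every library left 5 members in the AngII model, with a median of −0.86, and 0 related genes passing in the DOCA–HS model, where DESeq2, total counts and counts outside hemoglobin also gave 0. The DOCA–HS median was −1.59 under total counts, and 1 fit of all libraries gave 4 related AngII genes. Between the models, 1 member passed averaged with no filter (Jun), 1 before CMG with counts outside hemoglobin (Fos, 1.44), and 1 after CMG (Jund) with DESeq2, its size factors, or no filter. Counts outside hemoglobin moved the median of all genes before CMG from 0.06 to 0.78, and 455 of 7994 genes passed in place of 270. That scaling moved the median of the interaction from −0.12 to −0.89. In the interaction 2 members passed with DESeq2 and with no filter (Jund beside Atf3), and 0 passed with either total count scaling or a minimum of 10 counts per library. The cause of these changes was not tested. DESeq2 gave 165 genes at an unadjusted p of 0.05 or less in the AngII model in place of 479, and total counts 18 against 245 with DOCA–HS.

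The replicate number correlated within models (0.41 and 0.31), but no source says that it marks a rat. With it as a block the member medians were −1.30 and −0.63. In the AngII model 982 genes passed unadjusted and 165 adjusted (0 adjusted in the DOCA–HS model). Of the related genes, 4 passed adjusted in the AngII model against 0 unblocked, and 10 and 2 passed unadjusted in the models. Members are not counted here, since these contrasts chose them. With 4 libraries in a fit, the block leaves little from which to estimate the spread. Across the models, a block chosen after seeing the data gave 1 member averaged (Jun, −0.86, unadjusted p = 0.0259, edgeR), 0 before and 0 after CMG. The alternatives of the interaction and the likeness without DOCA–HS after replicate 2 were also chosen after seeing the data.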
